A study of Mus musculus with 9 samples.

Results

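The TAM receptors TYRO3, AXL and MERTK and their ligands GAS6 and protein S were followed as transcripts in cells sorted from mouse skin. The 5 genes Axl, Mertk, Tyro3, Gas6 and Pros1, which encodes protein S, were taken by symbol from a table of 23361 genes, and all 5 had enough fragments to be tested. The table covers 9 RNA libraries in 3 groups of 3, named UVB, Active and Quiescent. Every library came from skin cells labelled as melanocyte stem cells, taken by flow cytometry from mice aged 10 weeks with the genotype TBPT, which the labels do not spell out.

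UVB stands for medium-wave ultraviolet light. The treatment label gives chemical depilation or UVB irradiation for every sample alike, so it does not say which group was depilated, and it gives no dose or time. All groups, Quiescent included, share the genotype. The sort gate and the number of animals behind a library are not given, so p-values measure only the spread between libraries, which may be technical.

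TAM receptors are receptor tyrosine kinases that do not bind the membrane of a dying cell directly. GAS6 and protein S bridge the gap: their vitamin K-dependent Gla domain binds phosphatidylserine exposed on the cell surface, and their other end binds the receptor. GAS6 can activate all the TAM receptors, whereas protein S acts mainly through TYRO3 and MERTK. In macrophages MERTK drives the engulfment of apoptotic cells, and TAM signalling damps innate immune responses. In human melanoma, high AXL marks a drug-tolerant state with low MITF, while TYRO3 has been tied to MITF expression and MERTK to survival signalling.

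The receptors share a kinase-domain stretch by which the family is recognised, and it is shown here because fragments from family members could be confused where their sequences are alike. The stretches below are coding bases of the GENCODE M21 transcripts Axl-201, Mertk-201 and Tyro3-201 (GRCm38), 5′ to 3′, with the family signature in capitals.
Axl: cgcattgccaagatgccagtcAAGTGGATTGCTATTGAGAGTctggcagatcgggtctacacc
Mertk: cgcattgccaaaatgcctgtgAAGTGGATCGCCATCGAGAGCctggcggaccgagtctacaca
Tyro3: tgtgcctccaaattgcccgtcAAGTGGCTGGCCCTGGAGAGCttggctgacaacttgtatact
Of these 63 bases, Axl and Mertk shared 52, Mertk and Tyro3 41, and Axl and Tyro3 38. Over whole protein-coding transcripts the longest run common to any pair of the receptors was 14 bases, and Gas6 and Pros1 shared at most 12. None of the counts of the 5 genes was fractional.

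In GENCODE M21 on GRCm38, Axl lies on chromosome 7 at 25757273 to 25788705 (minus strand), Mertk on chromosome 2 at 128698956 to 128802894 (plus strand) and Tyro3 on chromosome 2 at 119797733 to 119818104 (plus strand). Gas6 lies on chromosome 8 at 13465374 to 13494490 (minus strand) and Pros1 on chromosome 16 at 62854307 to 62929346 (plus strand). No exon of another gene overlaps Axl, Mertk, Tyro3 or Pros1. Exons of Gas6 overlap those of Tmem255b on the opposite strand, and without the authors' strand setting their fragments cannot be told apart. Tmem255b itself averaged 2.89 ± 1.04 CPM in UVB, 0.398 ± 0.436 CPM in Active and 3.79 ± 1.05 CPM in Quiescent (SD, n = 3 each).

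The promoters of Gas6, Tyro3 and Axl are shown because these genes differed most clearly between the groups, in opposite directions. They are the 250 bases before the start of each gene in RefSeq's GRCm38.p6 annotation, 5′ to 3′ on the gene's strand, with the GC box letters GGGCGG in capitals on either strand.
Gas6 (chr8:13494536-13494785, minus strand): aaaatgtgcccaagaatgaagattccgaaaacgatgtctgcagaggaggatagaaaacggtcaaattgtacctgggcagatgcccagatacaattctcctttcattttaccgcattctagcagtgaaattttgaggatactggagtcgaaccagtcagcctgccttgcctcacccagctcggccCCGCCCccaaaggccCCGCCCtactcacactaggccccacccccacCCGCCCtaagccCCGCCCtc
Tyro3 (chr2:119799264-119799513, plus strand): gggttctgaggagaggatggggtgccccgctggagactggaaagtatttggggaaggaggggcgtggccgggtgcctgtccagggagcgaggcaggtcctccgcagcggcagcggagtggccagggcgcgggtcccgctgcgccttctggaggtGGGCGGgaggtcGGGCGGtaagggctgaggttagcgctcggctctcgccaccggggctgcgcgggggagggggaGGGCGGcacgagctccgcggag
Axl (chr7:25788734-25788983, minus strand): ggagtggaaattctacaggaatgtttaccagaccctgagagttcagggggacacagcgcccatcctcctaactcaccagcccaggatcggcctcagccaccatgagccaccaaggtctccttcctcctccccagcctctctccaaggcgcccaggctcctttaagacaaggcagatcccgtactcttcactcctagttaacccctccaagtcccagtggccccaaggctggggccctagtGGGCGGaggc
The windows of Pros1, Gas6, Mertk, Tyro3 and Axl held 5, 4, 3, 3 and 1 GC boxes in that order, and 32.7% of 32851 RefSeq promoter windows of this length held at least 1. None of the 5 genes' windows held the AP-1 letters TGANTCA, the letters CATGTG or the letters CACGTG, searched on both strands. These occurred in 6.75%, 12.3% and 6.02% of all windows. The Tyro3 window lies inside the gene's GENCODE span.

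Before the groups are compared, their cell make-up has to be stated. Library totals were 21045070 to 35131778 fragments. Levels between groups are CPM, a gene's fragments relative to the library total after TMM scaling. The Quiescent libraries went against their label: the melanocyte transcription factor Sox10 had 312 to 581 CPM in UVB and 551 to 660 CPM in Active, against 0.295 to 3.99 CPM in Quiescent. The summed level of 16 fibroblast markers was 27832 to 40831 CPM in UVB, 7331 to 9406 CPM in Active and 338898 to 459554 CPM in Quiescent. The summed level of 13 melanocyte markers was 941 to 1171 CPM in UVB, 8016 to 12951 CPM in Active and 87.6 to 230.2 CPM in Quiescent. Quiescent replicate 2 also stood apart in 15 macrophage and myeloid markers, at 2928 CPM against 218 and 403 CPM in the other Quiescent libraries. UVB differed from the other groups in sex-linked transcripts, with 23353 to 30356 fragments of Xist in UVB and 4 to 12 elsewhere. Summed over 4 Y-linked genes there were 0 to 2 fragments in UVB and 4106 to 5591 elsewhere. Sex and UVB can therefore not be told apart. In bulk libraries, fewer cells of a type and less RNA per cell cannot be told apart either.

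**Figure D1:**
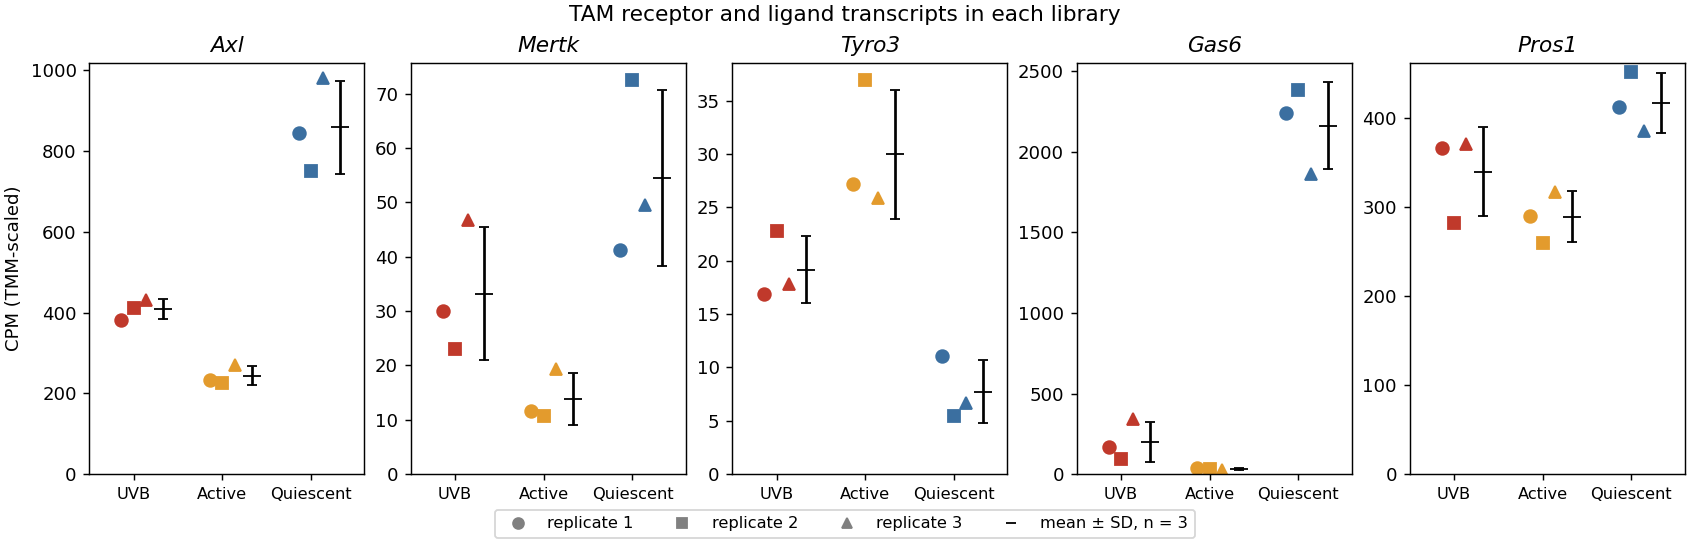
Each point is the TMM-scaled CPM of 1 library in the UVB, Active and Quiescent groups, and the bar beside it is the mean ± SD of 3 libraries. Gas6 lies at 27.3 to 38.2 CPM in Active and at 1861 to 2383 CPM in Quiescent, while Tyro3 is lowest in Quiescent, at 5.48 to 11.1 CPM.

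Active was set against Quiescent to ask how the receptor system of cells labelled as active stem cells differs from that of cells labelled as quiescent. All 5 genes passed the test: Axl, Mertk, Gas6 and Pros1 were lower in Active and Tyro3 was higher. In this comparison 58.3% of all genes tested passed, 29.1% of all genes tested higher and 29.2% lower, so a call alone does not set a gene apart. With library size alone in place of TMM scaling, 8651 genes were higher and 2206 lower, in place of 4390 and 4396, and the median over all genes was 0.757 on the log2 scale. Axl was then 2.09-fold, Mertk 2.36-fold and Gas6 41.0-fold lower, and Tyro3 was 6.47-fold higher. Libraries of the groups did not overlap for any of the 5, as was so for 66.2% of all genes, 33.5% higher and 32.7% lower. Adjusted p-values come from edgeR's quasi-likelihood F test, corrected by the Benjamini-Hochberg procedure over the 15078 genes that could be tested, and the threshold was 0.05.

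Axl, the most abundant of the receptors, had 234, 226 and 269.7 CPM in the Active libraries and 844, 752 and 979.9 CPM in the Quiescent libraries. Every Active value lay below every Quiescent value, and the groups were far apart relative to their spread. The means were 243 ± 23.4 CPM in Active and 859 ± 115 CPM in Quiescent (SD, n = 3 each), a fall of 3.53-fold (log2 fold change -1.82 ± 0.14 SE, adjusted p = 1.42e-05). Mertk, the efferocytosis receptor, had 11.6, 10.7 and 19.4 CPM in Active and 41.2, 72.4 and 49.6 CPM in Quiescent. It was 3.92-fold lower in Active (log2 fold change -1.97 ± 0.34 SE, adjusted p = 0.00113), again with no overlap. The highest Quiescent value came from replicate 2, the library rich in myeloid markers. Without that library the log2 fold change of Mertk was -1.71.

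Tyro3, the remaining receptor, went the other way. It had 27.1, 36.9 and 25.9 CPM in Active and 11.1, 5.48 and 6.67 CPM in Quiescent. All Active values exceeded all Quiescent values, and the lowest count behind them was 92 fragments. The means were 30.0 ± 6.04 CPM in Active and 7.74 ± 2.94 CPM in Quiescent (SD, n = 3 each), a rise of 3.85-fold (log2 fold change 1.95 ± 0.28 SE, adjusted p = 3.68e-04). Quiescent replicate 1, which had the highest Tyro3 of its group, also had the highest summed level of 12 keratinocyte markers, 2015 CPM against 154 and 603 CPM in the other Quiescent libraries. That library also had the highest Sox10 of its group, 3.99 CPM. In UVB the library with the highest keratinocyte sum, replicate 1 (981 CPM), had the lowest Tyro3, 16.9 CPM. The part of keratinocyte transcripts in the Tyro3 value of Quiescent replicate 1 was not tested.

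Gas6, the ligand that activates all the TAM receptors, showed the widest difference of the 5 genes. It had 38.2, 28.8 and 27.3 CPM in Active and 2239, 2383 and 1861 CPM in Quiescent. The groups did not approach each other: the highest Active library was at 38.2 CPM and the lowest Quiescent library at 1861 CPM. Gas6 was 68.7-fold lower in Active (log2 fold change -6.10 ± 0.48 SE, adjusted p = 1.66e-05), and 2.59% of the genes tested had a larger change in either direction. Pros1, the anticoagulant protein S and the other ligand, had 289.8, 260.1 and 317 CPM in Active and 413, 452 and 386 CPM in Quiescent. The ranges did not overlap, but the fall was small, 1.44-fold (log2 fold change -0.53 ± 0.14 SE, adjusted p = 0.0111), and 60.6% of the genes tested had a larger change. The call on Pros1 was lost without Active replicate 2 (adjusted p = 0.0515), and with library size alone in place of TMM scaling its log2 fold change was 0.22 (adjusted p = 0.217).

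Fibroblast markers moved with these falls. Of 16 fibroblast markers 15 were lower in Active and 1 higher, their summed level was 46.7-fold lower, and none of them was at 0 in any library. All 13 endothelial markers were lower, with a summed level of 46.5 to 57.4 CPM in Active and 532 to 810.1 CPM in Quiescent. Of 15 macrophage and myeloid markers 12 were lower, at 57.5 to 131 CPM in Active and 218 to 2928 CPM in Quiescent, and none was at 0. Gas6 fell further than the summed fibroblast markers and further than their median log2 fold change of -5.65. The defining fibroblast markers Col1a1 and Dcn fell further than Gas6, 165-fold and 114-fold. Axl, Mertk and Pros1 fell less than the summed markers. The rise of Tyro3 went with 12 of 13 melanocyte markers, whose summed level was 67.5-fold higher in Active. It also went with 8 of 12 Schwann cell markers, whose summed level was 3.83-fold higher, and with 7 of 10 hair matrix and root sheath markers, 22.6-fold higher in sum. Within Active the library with the highest Tyro3, replicate 2 (36.9 CPM), had the lowest melanocyte sum, 8016 CPM. The same was so within UVB, where replicate 2 had 22.8 CPM of Tyro3 and 941 CPM of melanocyte markers. Of 10 genes induced by dissociation stress 4 were lower, with a sum of 2433 to 7607 CPM in Active and 8531 to 15648 CPM in Quiescent. The part of these cell types in each result was not tested.

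**Figure D2:**
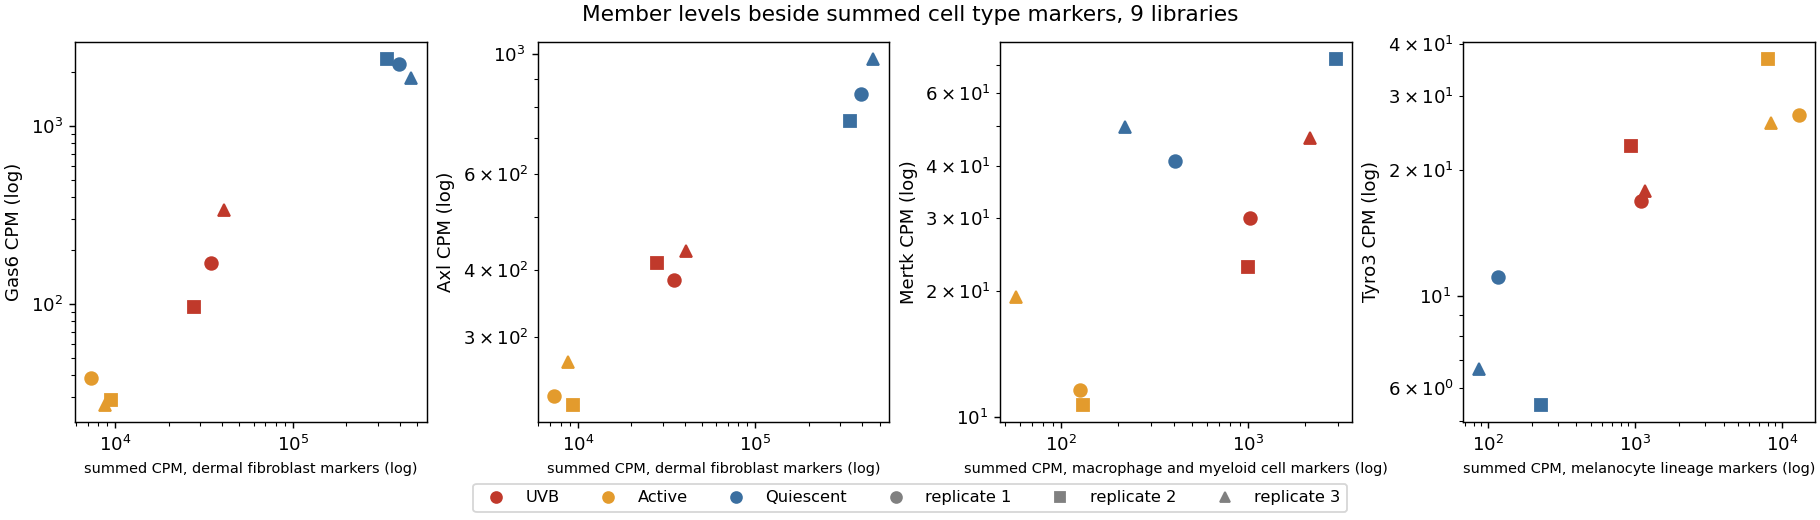
Each point is 1 library, with the CPM of a member on a log axis against the summed CPM of a marker list, also on a log axis. Fibroblast markers span 7331 to 459554 CPM, over which Gas6 spans 27.3 to 2383 CPM and Axl 226 to 979.9 CPM; the Active library with the highest Mertk, 19.4 CPM, has the lowest myeloid sum, 57.5 CPM.

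UVB was set against Quiescent to ask where the same genes stood after ultraviolet exposure. Of the 5 genes 3 passed: Axl and Gas6 were lower in UVB, by smaller factors than in Active, and Tyro3 was higher. Over all genes tested 49% passed, 25.8% higher and 23.2% lower, and 57.7% had no overlap between the groups, 30.2% higher and 27.5% lower. This comparison and the previous one use the same Quiescent libraries, so their values are given side by side and not as independent results. With library size alone 8746 genes were higher and 1246 lower, in place of 3895 and 3498, and the median over all genes was 0.742. Axl was then 1.26-fold and Gas6 6.53-fold lower, and Tyro3 was 4.06-fold higher.

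Axl had 382, 412 and 432 CPM in UVB and 844, 752 and 979.9 CPM in Quiescent, without overlap. Its mean of 409 ± 25.1 CPM in UVB was 2.10-fold below the 859 ± 115 CPM of Quiescent (SD, n = 3 each; log2 fold change -1.07 ± 0.14 SE, adjusted p = 3.19e-04). Tyro3 had 16.9, 22.8 and 17.8 CPM in UVB and 11.1, 5.48 and 6.67 CPM in Quiescent, also without overlap. It was 2.46-fold higher in UVB (log2 fold change 1.30 ± 0.27 SE, adjusted p = 0.00435). Gas6 had 170.0, 96.3 and 339 CPM in UVB and 2239, 2383 and 1861 CPM in Quiescent. The highest UVB library, replicate 3, stood apart from the other two, yet all lay far below Quiescent. Gas6 was 10.7-fold lower (log2 fold change -3.42 ± 0.42 SE, adjusted p = 2.84e-04), and 16.2-fold lower without UVB replicate 3.

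Mertk had 30.0, 22.9 and 46.7 CPM in UVB and 41.2, 72.4 and 49.6 CPM in Quiescent. The groups overlapped, since UVB replicate 3 exceeded Quiescent replicate 1, and the difference did not pass (log2 fold change -0.71, 95% interval -1.46 to 0.04, adjusted p = 0.105). It passed without UVB replicate 3 (adjusted p = 0.0304), and with library size alone its log2 fold change was 0.0020. Pros1 had 366, 282 and 371 CPM in UVB and 413, 452 and 386 CPM in Quiescent. Its difference did not pass (log2 fold change -0.30, 95% interval -0.62 to 0.03, adjusted p = 0.114), although the ranges did not overlap. Its direction depended on the scaling: with library size alone Pros1 was higher in UVB (log2 fold change 0.42, adjusted p = 0.0315). On log2(FPKM + 1) values limma passed it as lower (adjusted p = 0.0495).

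Of 16 fibroblast markers 12 were lower in UVB and 1 higher, with a summed level 11.5-fold lower. Within UVB, the libraries ordered by Gas6 had the same order as by fibroblast markers: replicate 2 was lowest with 96.3 CPM of Gas6 and 27832 CPM of markers, and replicate 3 highest with 339 and 40831 CPM. Quiescent had the reverse order, with the highest Gas6 (2383 CPM) in replicate 2, where the markers were lowest (338898 CPM). In Active the library with the highest Gas6, replicate 1 (38.2 CPM), had the lowest fibroblast sum (7331 CPM). Macrophage and myeloid markers stood at 989.7 to 2141 CPM in UVB and 218 to 2928 CPM in Quiescent, with 1 of 15 higher. Other immune lists moved more: T cell markers were higher for 7 of 9 and lower for 1, and mast cell markers higher for 6 of 7. The summed T cell level was nonetheless 1.52-fold lower in UVB. The T cell marker that was lower, Thy1, is also among the fibroblast markers. The mast cell sum was 8.77-fold higher. Dendritic and Langerhans markers were higher for 4 of 10. Endothelial markers were lower for 7 of 13, and smooth muscle and pericyte markers for 9 of 10, with 1 higher. UVB replicate 3, which had the highest Mertk of its group, also had the highest myeloid sum. Melanocyte markers were higher for 10 of 13, with a summed level 7.38-fold higher, and Schwann cell markers for 8 of 12, 3.78-fold higher in sum. Dissociation stress genes were lower for 4 of 10. The part of these cells in each result was not tested.

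UVB was then set against Active, the comparison in which both groups held Sox10. Gas6, Mertk and Axl were higher in UVB, and neither Tyro3 nor Pros1 passed. Over all genes 24% passed, 14.8% higher and 9.19% lower, and 46.7% had no overlap, 25% higher and 21.7% lower. The count of genes that passed was sensitive to single libraries: it was 3612 genes with all libraries, 1806 without Active replicate 1, 1452 without Active replicate 2 and 1938 without UVB replicate 1.

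Gas6 had 170.0, 96.3 and 339 CPM in UVB and 38.2, 28.8 and 27.3 CPM in Active. Each UVB library was at least at 96.3 CPM, above the highest Active value. Gas6 was 6.42-fold higher in UVB (log2 fold change 2.68 ± 0.41 SE, adjusted p = 0.00356), and 4.24-fold higher without UVB replicate 3. Axl had 382, 412 and 432 CPM in UVB and 234, 226 and 269.7 CPM in Active, without overlap. It was 1.68-fold higher in UVB (log2 fold change 0.75 ± 0.13 SE, adjusted p = 0.00665). Mertk had 30.0, 22.9 and 46.7 CPM in UVB and 11.6, 10.7 and 19.4 CPM in Active, also without overlap. It was 2.40-fold higher in UVB (log2 fold change 1.26 ± 0.34 SE, adjusted p = 0.0279). The call on Mertk was lost without Active replicate 1 (adjusted p = 0.0976) or Active replicate 2 (adjusted p = 0.105). It was also lost without UVB replicate 1 (adjusted p = 0.0602) or UVB replicate 3 (adjusted p = 0.0768).

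Tyro3 had 16.9, 22.8 and 17.8 CPM in UVB and 27.1, 36.9 and 25.9 CPM in Active. All UVB values lay below all Active values, yet the difference did not pass (log2 fold change -0.64, 95% interval -1.25 to -0.04, adjusted p = 0.11). It passed without Quiescent replicate 1, a library outside the comparison that shares the estimate of the spread (adjusted p = 0.0473). Pros1 had 366, 282 and 371 CPM in UVB and 289.8, 260.1 and 317 CPM in Active, with overlapping ranges (log2 fold change 0.23, 95% interval -0.09 to 0.55, adjusted p = 0.263).

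Fibroblast markers were higher in UVB than in Active for 14 of 16, endothelial for all 13, and macrophage and myeloid markers for 14 of 15. T cell markers were higher for 9 of 9 and mast cell markers for 7 of 7. Dendritic and Langerhans markers were higher for 8 of 10, and smooth muscle and pericyte markers for 6 of 10. No marker of these 4 lists was lower. Some lists went the other way or hardly moved. Of hair matrix and root sheath markers 3 of 10 were lower, with a summed level 7.87-fold lower. Lower too were 1 of 12 keratinocyte markers and 1 of 12 Schwann cell markers. The summed myeloid level was 989.7 to 2141 CPM in UVB and 57.5 to 131 CPM in Active, and that of 10 dendritic and Langerhans markers was 1987 to 3256 CPM in UVB and 94.6 to 204 CPM in Active. Melanocyte markers were lower for 10 of 13. The part of these cells in the differences of Gas6, Axl and Mertk was not tested.

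**Figure D3:**
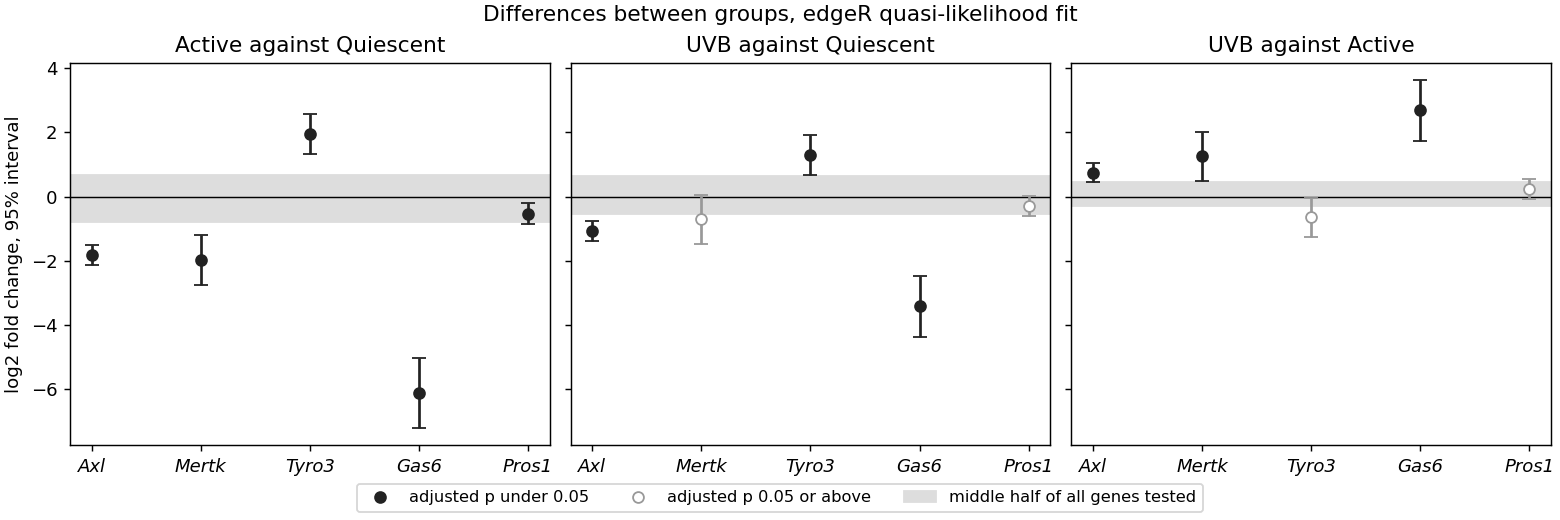
Points are log2 fold changes of each member in the 3 comparisons, bars are 95% intervals, filled points have an adjusted p under 0.05, and the grey band holds the middle 50% of all genes tested. Gas6 lies outside the band in every comparison, from -6.10 in Active against Quiescent to 2.68 in UVB against Active, while Pros1 lies within it in each of them.

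The 5 genes can be ordered by level within a library, where scaling between libraries has no part. Here levels are FPKM, which are per length of transcript. In Active the order was Pros1, Axl, Gas6, Tyro3 and Mertk in all 3 libraries. It was Pros1 at 81.9 to 98.1 FPKM, Axl at 45.4 to 52.8, Gas6 at 10.8 to 15.3, Tyro3 at 6.48 to 9.41 and Mertk at 3.08 to 5.48 FPKM, and no neighbours overlapped. In Quiescent the order was Gas6, Axl, Pros1, Mertk and Tyro3 in every library. Gas6 stood at 751 to 951 FPKM, Axl at 148 to 195, Pros1 at 121 to 141, Mertk at 11.9 to 20.6 and Tyro3 at 1.38 to 2.82 FPKM, again with no overlap of neighbours. In UVB, replicates 1 and 2 had the order Pros1, Axl, Gas6, Mertk and Tyro3, and replicate 3 had Gas6 first. Gas6 ranged from 39.1 to 132 FPKM there, over the ranges of Pros1, 89.2 to 113, and Axl, 74.9 to 83.1 FPKM. Pros1 and Axl did not overlap each other, nor did Mertk, 6.64 to 12.96, and Tyro3, 4.22 to 5.85 FPKM.

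Axl made up most of the receptor transcripts in every library. Its share of the summed FPKM of the 3 receptors was 85.1 ± 2.12% in UVB, 80.7 ± 1.95% in Active and 90.5 ± 2.99% in Quiescent (SD, n = 3 each). The share of Tyro3 was 5.10 ± 0.922% in UVB, 12.8 ± 3.17% in Active and 1.05 ± 0.421% in Quiescent. Axl exceeded Tyro3 by 17.7, 14.2 and 19.0 times in the UVB libraries, by 6.76, 4.82 and 8.14 times in Active, and by 59.8, 107 and 115 times in Quiescent. These ratios did not overlap between any pair of groups. For the shares of Axl and Tyro3, the exact permutation test gave p = 0.1 in each comparison, two-sided, the smallest that 3 libraries against 3 allow. The share of Mertk was 9.84 ± 2.97% in UVB, 6.54 ± 1.69% in Active and 8.45 ± 3.19% in Quiescent, with overlap between all groups. Mertk and Tyro3 changed order: the ratio of Mertk to Tyro3 was 2.0, 1.14 and 2.96 in UVB, 0.481, 0.327 and 0.845 in Active, and 4.21, 14.9 and 8.39 in Quiescent. Without UVB replicate 3, the Mertk share in UVB minus that in Quiescent was -0.143 points in place of 1.39.

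The balance of the ligands differed between the groups. Gas6 made up 40.6 ± 12.1% of the summed ligand FPKM in UVB, 12.3 ± 2.27% in Active and 86.9 ± 0.706% in Quiescent (SD, n = 3 each). The libraries of the groups did not overlap, and the exact permutation p was 0.1 in each comparison, the smallest possible. Ligand transcripts exceeded receptor transcripts in all libraries, by 1.35 to 2.43 times in UVB, 1.61 to 1.87 times in Active and 4.13 to 6.42 times in Quiescent.

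**Figure D4:**
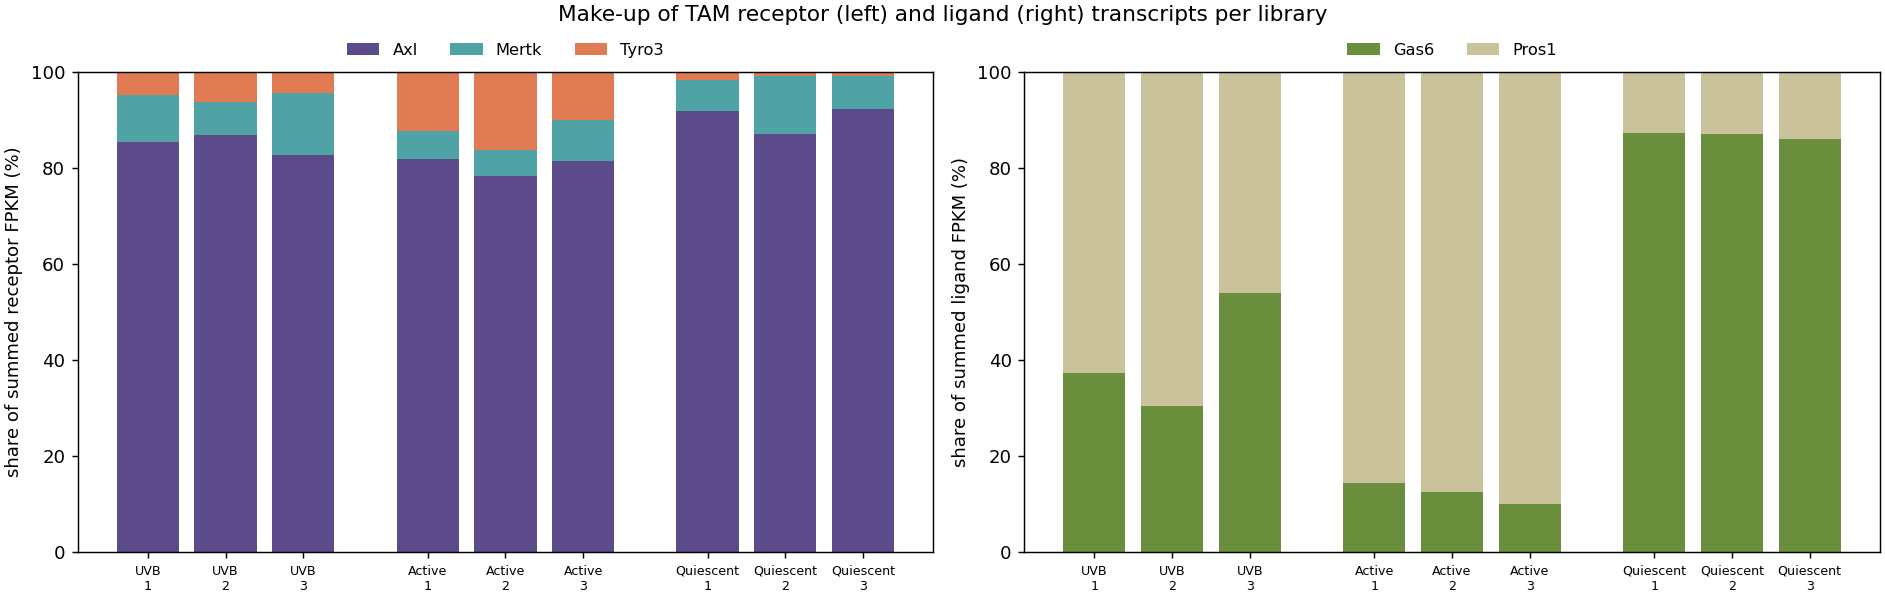
Bars show, for each of the 9 libraries, the percentage of summed receptor FPKM from Axl, Mertk and Tyro3 (left) and of summed ligand FPKM from Gas6 and Pros1 (right). Tyro3 reaches 12.8% on average in Active, against 5.10% in UVB and 1.05% in Quiescent, and Gas6 averages 40.6% of ligand transcripts in UVB, 12.3% in Active and 86.9% in Quiescent.

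The members differed in how closely other genes followed them. Likeness was the root mean squared difference between log2 CPM values over the 9 libraries, after centring each gene on its mean, among 11741 genes. Nearest to Axl were Fndc3b (0.093), Tsku (0.12), which encodes the secreted protein tsukushi, and Pxk (0.12). Nearest to Gas6 were Serping1, the complement C1 inhibitor (0.17), Mkx, a homeobox gene of tendon cells (0.17), and Ctsk, which encodes the protease cathepsin K (0.23). Ctsk averaged 504 CPM in UVB, 88.2 CPM in Active and 6696 CPM in Quiescent. Nearest to Tyro3 were Rfc5, a subunit of the clamp loader of DNA replication (0.20), Tmem98 (0.20) and the tubulin gene Tubb4b (0.21). Nearest to Mertk were Abcd2, a peroxisomal fatty acid transporter (0.22), Eif2c4, an argonaute gene (0.24), and Tmem173, which encodes the innate immune adaptor STING (0.25). Pros1 had so flat a profile that 53.2% of these genes came within 0.5 of it, against 0.503% for Gas6. The share within 0.5 was 11.4% for Axl, 6.36% for Tyro3 and 3.29% for Mertk. Among the members themselves Axl and Mertk were closest (0.43) and Tyro3 and Gas6 farthest apart (3.39).

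The genes around the receptors were counted from lists, 180 tested genes in all. Across them 56 were higher and 78 lower in Active relative to Quiescent, 59 were higher and 50 lower in UVB relative to Quiescent, and 56 were higher and 20 lower in UVB relative to Active. The last total of 76 was 49 without Active replicate 1 and 43 without Active replicate 2. With library size alone 82 list genes were higher and 49 lower in the first comparison, and 94 higher and 19 lower in the second. Over all genes tested the log2 fold change had a median of 0.01, 0.02 and 0.01 in these comparisons. Of all genes tested, 29.1% were higher and 29.2% lower in the first comparison, and 25.8% and 23.2% in the second. In the third, UVB against Active, 14.8% were higher and 9.19% lower. The counts of each list below are to be read beside these shares.

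GAS6 and protein S need gamma-carboxylation, which runs on the vitamin K cycle. Of 7 genes of that cycle 6 were lower in Active than in Quiescent (median log2 fold change -0.55), and 5 were lower in UVB than in Quiescent (median -0.64). Vkorc1, the epoxide reductase that recycles vitamin K, had 36.1 ± 2.75 CPM in Active and 219 ± 37.6 CPM in Quiescent (6.06-fold lower, adjusted p = 7.71e-06). It had 43.4 ± 7.08 CPM in UVB, 5.04-fold below Quiescent (adjusted p = 2.10e-05; SD, n = 3 each), and did not pass between UVB and Active (adjusted p = 0.257).

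Receptor shedding is carried out by metalloproteases. Of 5 genes for these proteases and their regulators 2 were higher and 1 lower in Active relative to Quiescent, and 4 were higher and 1 lower in UVB relative to Quiescent. Adam10, a sheddase, had 288 ± 14.6 CPM in UVB, 301 ± 31.1 CPM in Active and 140.2 ± 8.01 CPM in Quiescent (SD, n = 3 each). It was 2.15-fold higher in Active than in Quiescent (adjusted p = 5.35e-05) and 2.06-fold higher in UVB than in Quiescent (adjusted p = 1.35e-04). Timp3, an inhibitor of these proteases, was 2.51-fold lower in Active than in Quiescent (adjusted p = 0.00689).

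Of 25 adaptor and kinase genes downstream of the receptors, 8 were higher and 9 lower in Active relative to Quiescent. The shares over all genes tested there were 29.1% and 29.2%. In UVB relative to Quiescent 10 of the 25 were higher and 7 lower, beside 25.8% and 23.2% of all genes. In UVB against Active 7 of the 25 were higher, beside 14.8% of all genes. Nck2, an SH2 and SH3 adaptor, was 3.18-fold higher in Active than in Quiescent (adjusted p = 4.17e-05), and Pik3r1, a regulatory subunit of PI3 kinase, 2.66-fold lower (adjusted p = 3.69e-05). Vav3, a guanine nucleotide exchange factor, had 12.04 ± 2.23 CPM in UVB and 4.02 ± 0.833 CPM in Active (2.99-fold higher, adjusted p = 0.00248; SD, n = 3 each).

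Among 22 tested genes for other bridging molecules and phosphatidylserine receptors, 4 were higher and 12 lower in Active relative to Quiescent, with a median log2 fold change of -1.75. In UVB against Active 13 were higher and 1 lower, with a median of 2.09, and the myeloid markers above were higher with them. Megf10, an engulfment receptor of glia and muscle precursors, averaged 199 ± 60.1 CPM in UVB, 214 ± 6.37 CPM in Active and 0.832 ± 0.373 CPM in Quiescent (SD, n = 3 each). It rose 246-fold in Active over Quiescent (adjusted p = 2.06e-06). Itgb5, a subunit of the integrin that binds the bridging protein MFG-E8, was 5.92-fold lower in Active than in Quiescent (adjusted p = 2.78e-05). Of 12 engulfment genes 6 were higher and 3 lower in Active relative to Quiescent. Gulp1, an adaptor of engulfment receptors, had the lowest adjusted p of those that were higher (2.18-fold, adjusted p = 6.00e-05), and Dock1, a RAC exchange factor, was 3.35-fold higher (adjusted p = 1.13e-04). Elmo1, the partner of DOCK1 in activating RAC, was 8.56-fold lower there (adjusted p = 3.33e-05). Of 10 genes for phosphatidylserine exposure 1 was higher and 4 lower in Active relative to Quiescent, and 2 were higher and 2 lower in UVB relative to Quiescent. Xkr8, a scramblase subunit gene, had 6.93 ± 1.95 CPM in UVB and 12.7 ± 0.850 CPM in Quiescent (SD, n = 3 each; 1.84-fold lower, adjusted p = 0.0093).

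Of 16 genes known to regulate TAM transcripts, 1 was higher and 9 lower in Active relative to Quiescent, and 5 were higher in UVB than in Active. Of 45 other receptor tyrosine kinases, 10 were higher and 24 lower in Active relative to Quiescent, 11 were higher and 16 lower in UVB relative to Quiescent, and 23 were higher and 3 lower in UVB relative to Active. Tyro3 stood with the smaller number of kinases that were higher in Active, such as Erbb3, the neuregulin receptor, with 526 ± 56.0 CPM in Active and 4.0 ± 2.40 CPM in Quiescent (adjusted p = 9.62e-06). Axl and Mertk stood with the larger number that were lower, such as Ddr2, a collagen receptor, with 8.23 ± 0.638 CPM in Active and 566 ± 66.7 CPM in Quiescent (adjusted p = 6.34e-06; SD, n = 3 each). The kinase list shares genes with the cell type markers counted above. Examples are Flt1 (endothelial), Pdgfra and Pdgfrb (fibroblast), Csf1r (myeloid), Kit (melanocyte) and Erbb3 (Schwann cell). The part of the cell make-up in the kinase counts was not tested.

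Lists of genes that accompany high AXL or high MITF in human melanoma were counted as well. Of 20 AXL-state genes 4 were higher and 12 lower in Active relative to Quiescent (median log2 fold change -1.10), and 5 were higher in UVB than in Active (median 0.23). Of 20 MITF-state genes 19 were higher in Active than in Quiescent (median 5.66), and 16 were lower in UVB than in Active (median -2.82). In UVB relative to Quiescent 2 AXL-state genes were higher and 7 lower (median -0.74). There 16 MITF-state genes were higher and 1 lower (median 2.91). Mitf itself averaged 27.3 ± 9.58 CPM in UVB, 210 ± 146 CPM in Active and 55.0 ± 8.44 CPM in Quiescent (SD, n = 3 each). In UVB against Quiescent Mitf was 2.01-fold lower and did not pass (adjusted p = 0.0876). The MITF-list genes Sox10, Mitf, Dct, Tyr, Tyrp1, Pmel, Mlana, Mc1r, Slc45a2 and Oca2 are also among the melanocyte markers counted above. The AXL list shares Pdgfrb with the fibroblast markers. The part of the cell make-up in these counts was not tested. Axl had the direction of its list's median, but members of the list differed: Ngfr, a neural crest receptor, was 71-fold higher in Active than in Quiescent (adjusted p = 1.78e-06), while Tgfbi, a secreted matrix protein, was 15.7-fold lower (adjusted p = 9.62e-06).

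**Figure D5:**
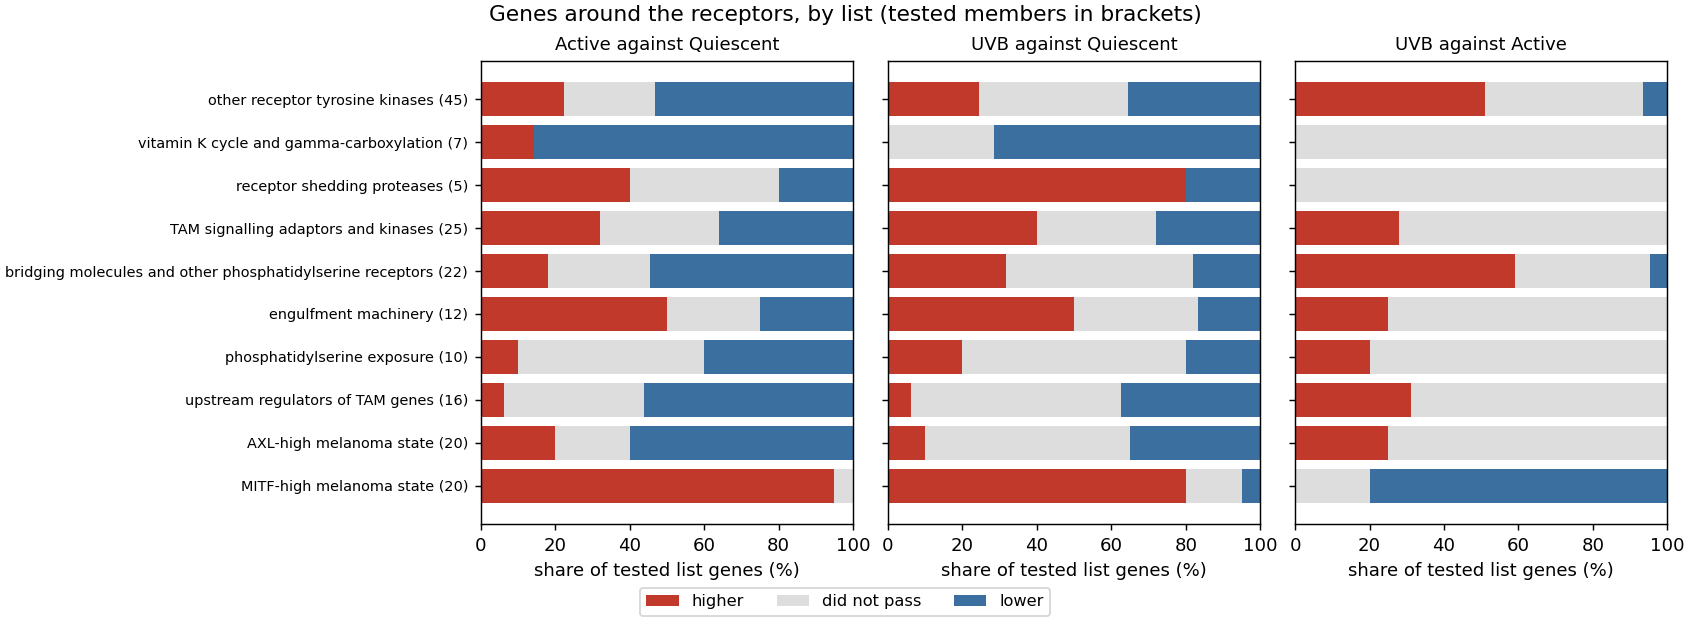
For each list and comparison, the bar splits the tested genes into those higher, those that did not pass and those lower at an adjusted p under 0.05 (percent). Vitamin K genes are lower for 6 of 7 in Active against Quiescent, and 13 of 22 bridging molecules and phosphatidylserine receptors are higher in UVB against Active.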

How the data were processed

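RNA was measured in 9 libraries. Per the labels' protocols, poly(A) RNA was selected and the kit kept strand. Per the submitters' processing notes, cutadapt 1.8, TopHat2 2.0.13, Cuffdiff 2.2.1 and the build mm10 were used. The sources used here do not give the annotation, settings or strand handling. The deposited table holds estimated counts per gene and library, before scaling, per the file headers. It also holds the authors' FPKM values, which are per length and carry their own scaling between libraries, so FPKM was used only between genes of 1 library and in the limma alternatives.

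Counts were rounded (1.08% were not whole to within 1e-06) and tested in 1 fit of all 9 libraries with TMM factors of 0.660 to 1.23, by the quasi-likelihood F test of edgeR 4.0.16 (R 4.3.3). The function filterByExpr left 15078 of 23361 genes. The standard error is the log2 fold change divided by the square root of F. Libraries of 1 group differed beyond sampling noise (chi-square per degree of freedom 25.6 to 120.2). Lists were matched by symbol or, for older symbols, through RefSeq names.

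The fit was tested on simulated data. Shares within a library were compared with an exact permutation test. Named genes were the 5 members, the gene of lowest adjusted p of each list in each direction, defining cell type markers such as Sox10, and the 3 genes nearest to each member with mean log2 CPM of at least 1. Some leading genes are not reported here. Tmem255b and Xist were added after values were seen. Members and lists were chosen with earlier results of these data known. The alternatives tried were other scaling factors, DESeq2 1.42.0, limma 3.58.1 on log2(FPKM + 1) and log2(FPKM + 0.1), other filters, fits of only the groups compared, a replicate block, and leaving out each library.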

Additional observations from a re-analysis of the deposited data

How the results depend on the processing

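Over the 15 results of the 5 genes and 19 alternatives each, 273 of 285 values kept their direction and their side of the threshold. Library size alone shifted the median of all log2 fold changes to 0.757 in Active against Quiescent and 0.742 in UVB against Quiescent. Under it Pros1 had log2 fold changes of 0.22 and 0.42 and Mertk in UVB against Quiescent 0.0020. Pros1 in UVB against Quiescent passed as lower with limma, at -0.32 with either pseudocount. Leaving out 1 library moved the log2 fold change of Pros1 from -0.58 to -0.45 in Active against Quiescent and from -0.36 to -0.18 in UVB against Quiescent. It moved that of Mertk from -1.04 to -0.45 in UVB against Quiescent and from 0.93 to 1.53 in UVB against Active. It moved that of Tyro3 in UVB against Active from -0.79 to -0.47. In UVB against Active, genes past the threshold then ran from 1452 to 4226 and list genes from 43 to 81. The Mertk share in UVB minus that in Quiescent ran from -0.143 to 3.23 points. The cause was not tested. With a replicate block 8223, 6809 and 2830 genes passed in Active against Quiescent, UVB against Quiescent and UVB against Active, in place of 8786, 7393 and 3612, and the block changed no call on the 5 genes. The libraries share only a number: deviations of same-numbered libraries correlated at -0.171 to 0.231. In Active against Quiescent each library correlated best with its own number. Depth was no close limit for these genes, with at least 92 fragments per library for Tyro3.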
